A study of Mus musculus with 2 samples.

Results

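The nuclear-encoded genes of the mitochondrial respiratory chain were examined in the peak list deposited for a Cut&Tag assay of mouse hippocampus. The genes were chosen by symbol from the RefSeq annotation of GRCm38, the build that mm10 stands for: protein-coding genes on chromosomes 1 to 19, X, and Y whose symbol begins with Nduf, Sdha to Sdhd, Uqcr, Cox4i, Cox5, Cox6, Cox7, Cox8, or Atp5. This rule found 100 genes of the 21887 protein-coding genes on these chromosomes. By symbol, 12 were counted as assembly factors, the Ndufaf and Sdhaf genes, and the remaining 88 as subunits. In Cut&Tag, an antibody in permeable nuclei directs the transposase Tn5 to the chromatin around its target, and the DNA cut there is sequenced. The study made 1 library with an antibody against Smad4, the common partner of the Smad transcription factors downstream of TGF-β and BMP receptors, and 1 with a control IgG, both from mouse hippocampus. The genotype, age, and number of the mice behind these libraries are not given in the sources used here. The only peak list analysed comes with the IgG library's record and carries no antibody in its name, so its peaks were assigned to neither antibody, no comparison between antibodies was made, and there was no replicate. A gene counted as having a peak when a peak interval came within 3 kb of either end of the gene.

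The respiratory chain sits in the inner mitochondrial membrane. Complexes I (NADH dehydrogenase), III (cytochrome bc1), and IV (cytochrome c oxidase) pump protons as electrons pass from NADH to oxygen, complex II (succinate dehydrogenase) feeds in electrons from succinate, and complex V (ATP synthase) uses the proton gradient to make ATP. Neurons depend on this supply for synaptic transmission. Most subunits are encoded in the nucleus, and those encoded in mitochondrial DNA were not part of the gene set. Genes were assigned to complexes by symbol alone, which places Ndufa4, now known as a partner of complex IV, with complex I, and Cox7a2l, a supercomplex factor, with complex IV.

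Of the 100 genes, 10 had an end within 3 kb of a peak (10.0%, 95% exact binomial interval 4.90% to 17.6%). Over all protein-coding genes the share was 5.30% (1159 of 21887), which lies within that interval. The 10 genes were Ndufa6, Ndufa10, Ndufab1, Ndufb10, and Ndufaf8 of complex I, Uqcrq of complex III, Cox5b of complex IV, and Atp5g1, Atp5g3, and Atp5md of complex V. No gene of complex II had such a peak. Together they were served by 11 peaks, since Ndufa6 had 2, one over its 5′ end and one inside the gene. The intervals cover counting error within 1 peak list, and genes are not replicates.

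The promoters of 5 of these genes, Atp5g1, Atp5g3, Atp5md, Ndufa6, and Ndufaf8, were overlapped by a peak. Their sequences are shown from RefSeq, GRCm38, from 250 bases before to 50 bases after the transcription start site (TSS), 5′ to 3′ on the strand of the gene. Capitals mark the bases that lie inside a peak. The first set is the 3 genes of subunit c, the proteolipid that forms the rotor ring of ATP synthase. Atp5g1, Atp5g2, and Atp5g3 encode the same mature protein behind different import sequences. They lie at chr11:96075582-96075881, chr15:102670998-102671297, and chr2:73911277-73911576, all on the minus strand.
Atp5g1: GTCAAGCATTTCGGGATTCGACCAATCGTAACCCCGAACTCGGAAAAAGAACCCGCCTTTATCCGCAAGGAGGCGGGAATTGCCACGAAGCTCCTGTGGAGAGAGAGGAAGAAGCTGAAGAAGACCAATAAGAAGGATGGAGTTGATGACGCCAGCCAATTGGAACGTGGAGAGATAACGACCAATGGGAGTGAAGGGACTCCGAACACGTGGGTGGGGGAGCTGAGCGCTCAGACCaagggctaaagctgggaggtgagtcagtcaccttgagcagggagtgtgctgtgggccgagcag
Atp5g2: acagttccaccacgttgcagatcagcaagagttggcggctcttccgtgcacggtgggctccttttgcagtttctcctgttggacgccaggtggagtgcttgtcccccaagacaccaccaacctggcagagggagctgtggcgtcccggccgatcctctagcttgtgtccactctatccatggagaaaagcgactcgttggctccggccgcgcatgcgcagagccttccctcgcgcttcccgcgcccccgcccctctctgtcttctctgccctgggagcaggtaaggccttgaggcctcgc
Atp5g3: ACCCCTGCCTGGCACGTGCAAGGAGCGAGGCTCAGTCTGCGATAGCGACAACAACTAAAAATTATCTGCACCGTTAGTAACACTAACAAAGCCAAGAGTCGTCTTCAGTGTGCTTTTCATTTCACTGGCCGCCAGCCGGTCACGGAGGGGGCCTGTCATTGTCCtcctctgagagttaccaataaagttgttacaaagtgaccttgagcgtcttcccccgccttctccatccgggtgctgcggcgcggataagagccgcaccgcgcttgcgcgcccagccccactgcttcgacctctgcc

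In the promoter window of Atp5g1, 237 of the 300 bases lay in a peak, and in that of Atp5g3 164 did. Both covered stretches began at the upstream edge of the window. No base of the Atp5g2 window lay in a peak, and the nearest peak was 7908 bp away. The second set holds the other promoters that a peak overlapped: Atp5md at chr19:47090598-47090897 and Ndufa6 at chr15:82354242-82354541, both on the minus strand, and Ndufaf8 at chr11:120098684-120098983 on the plus strand.
Atp5md: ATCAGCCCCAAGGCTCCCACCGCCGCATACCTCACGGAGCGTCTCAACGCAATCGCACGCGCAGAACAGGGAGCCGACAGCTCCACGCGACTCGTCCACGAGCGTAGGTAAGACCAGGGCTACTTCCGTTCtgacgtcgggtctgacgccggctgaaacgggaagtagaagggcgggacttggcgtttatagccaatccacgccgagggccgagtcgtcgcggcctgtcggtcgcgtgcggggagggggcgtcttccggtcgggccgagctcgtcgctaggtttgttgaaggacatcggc
Ndufa6: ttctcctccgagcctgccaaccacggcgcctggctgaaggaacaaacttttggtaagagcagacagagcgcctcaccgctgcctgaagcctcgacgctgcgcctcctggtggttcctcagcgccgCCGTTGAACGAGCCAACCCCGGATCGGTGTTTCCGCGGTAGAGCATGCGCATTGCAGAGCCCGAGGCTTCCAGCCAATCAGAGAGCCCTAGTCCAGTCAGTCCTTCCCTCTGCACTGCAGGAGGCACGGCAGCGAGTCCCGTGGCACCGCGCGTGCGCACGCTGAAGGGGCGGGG
Ndufaf8: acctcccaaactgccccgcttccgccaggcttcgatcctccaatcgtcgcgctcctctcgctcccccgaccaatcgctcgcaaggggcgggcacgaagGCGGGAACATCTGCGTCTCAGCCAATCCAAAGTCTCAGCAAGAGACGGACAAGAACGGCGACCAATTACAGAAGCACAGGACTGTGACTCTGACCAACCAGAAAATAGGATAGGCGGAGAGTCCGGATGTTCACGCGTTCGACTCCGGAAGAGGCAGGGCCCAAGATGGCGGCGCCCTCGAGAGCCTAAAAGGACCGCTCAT

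The covered part was 131 bases in Atp5md, 175 in Ndufa6, and 202 in Ndufaf8. In Ndufa6 and Ndufaf8 it ran across the TSS, and in Atp5md it stopped upstream of it. In all, 5 of 87 promoter windows listed for respiratory chain genes were overlapped by a peak (5.75%), and 371 of the 21263 windows of all protein-coding genes were (1.74%). No interval was computed for these shares, and the difference, which does not allow for promoter composition, was not tested. The 87 windows belong to 82 of the 100 genes. The table used holds 17492 (79.9%) of all protein-coding genes.

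Complex V had the most genes with a peak for its size, 3 of 17 (17.6%, exact interval 3.80% to 43.4%), and the interval includes the share of all protein-coding genes. The peak at Atp5g1 (chr11:96075645-96075900) overlapped the 5′ end of the gene. It had a fold enrichment of 4.23, a pileup of 4, the number of fragments that overlap at the summit, and a q-value of 0.00556. The fold enrichment is a ratio of pileup to background with the same constant added to both. With a background as low as here, 0.182, it mostly follows the pileup and is not a plain ratio of signal to background. The summit of the Atp5g1 peak lay 66 bp upstream of the TSS. The Atp5g3 peak (chr2:73911413-73911673) had a fold enrichment of 4.46, a q-value of 0.00124, and a pileup of 4, with the summit 237 bp upstream of the listed TSS. This peak lay inside the annotated gene, 791 bp from its higher-coordinate end, because the RefSeq gene begins upstream of that TSS. Atp5md encodes DAPIT, a small subunit involved in dimers of ATP synthase. Its peak (chr19:47090767-47091013) had the lowest q-value of the 11, 0.000103, with a fold enrichment of 5.26 and a pileup of 5. The summit was 149 bp upstream of the TSS of Atp5md. The peak was nearer to Pdcd11, a ribosome biogenesis gene whose end was 32 bp away, than to Atp5md at 120 bp.

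Among the other genes of complex V, Atp5pb, which encodes subunit b of the stator stalk, held a peak in its interior. It lay at chr3:105948258-105948450, 5560 bp from an end, with a pileup of 2. For the genes of the catalytic head, the nearest peaks were 37.4 kb from Atp5a1 (subunit α), 132 kb from Atp5b (subunit β), and 73.0 kb from Atp5c1 (subunit γ). Over the 17 genes the median distance from a gene end to the nearest peak was 37.4 kb, the shortest median of the 5 complexes. It was 84.6 kb over all 100 genes and 111 kb over all protein-coding genes, with quartiles of 34.9 and 281 kb for the latter.

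Complex I is the largest of the complexes, and 5 of its 49 genes had a peak near an end (10.2%, exact interval 3.40% to 22.2%). The share of all protein-coding genes, 5.30%, lay within that interval. Ndufa6, an accessory subunit of the LYR family, was the only one of the 100 genes with 2 peaks within 3 kb of its ends. The peak at its 5′ end (chr15:82354209-82354416) overlapped the TSS, with a fold enrichment of 3.78, a q-value of 0.0288, and a pileup of 4. The other (chr15:82351597-82351950) lay inside the gene, 1458 bp from its 3′ end, and was the stronger, with a fold enrichment of 5.17, a q-value of 0.000651, and a pileup of 6, the highest of the 11 peaks. Its distance to Smdt1, the neighbour that encodes a part of the mitochondrial calcium uniporter, was 2535 bp. Ndufaf8 encodes an assembly factor, the only assembly factor of the 12 with a peak near an end. Its peak (chr11:120098782-120098995) covered the TSS with a fold enrichment of 4.30, a q-value of 0.00330, and a pileup of 4, and it also overlapped an end of the neighbouring gene Tepsin. The peak could therefore be counted for either gene.

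The 3 remaining genes of complex I had their peaks at the 3′ side. Ndufb10, an accessory subunit of the membrane arm, had a peak 2034 bp beyond its 3′ end (chr17:24719815-24720026) with a fold enrichment of 4.68, a q-value of 0.00285, and a pileup of 5. This peak overlapped the noncoding genes Snhg9 and Snora78, and the end of the ribosomal protein gene Rps2 was 1694 bp away, nearer than Ndufb10. Ndufa10 (chr1:92438629-92438882, 604 bp beyond the 3′ end) and Ndufab1 (chr7:122089773-122089994, inside the gene and 2958 bp from the 3′ end) each had a peak of the lowest pileup, 2, with 2.83-fold enrichment and a q-value of 0.0439. Ndufa10 is an accessory subunit, and Ndufab1 is the mitochondrial acyl carrier protein, which also serves fatty acid synthesis. Ndufab1 was the member just inside the 3 kb limit at 2958 bp, and Ndufc2, with a peak at 5261 bp, was the nearest outside it, followed by Atp5pb, Atp5g2 at 7908 bp, Ndufc1 at 8726 bp, and Ndufv2 at 10121 bp. The assembly factor gene Ndufaf2, the longest of the 100 at 106 kb, held a peak in its interior (chr13:108125970-108126196, pileup 2), 32456 bp from an end.

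Of the core subunits of complex I, which carry the flavin and iron-sulfur clusters, those described here had no peak within 3 kb. Ndufv2 was the nearest of them, with a peak 10.1 kb away that had a pileup of 6. The distances were 22.6 kb for Ndufs7, 26.9 kb for Ndufs1, 33.8 kb for Ndufv1, 47.1 kb for Ndufs3, and 134 kb for Ndufs8. The peaks in reach of complex I genes were at accessory subunits and at 1 assembly factor. Core genes without a peak were no exception, since only 5.30% of all protein-coding genes had one within 3 kb of an end. A difference between core and accessory genes was not tested.

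None of the 8 genes of complex II had a peak within 3 kb, which by the exact interval allows a share of up to 36.9% and does not set them apart from all protein-coding genes at 5.30%. The nearest peak was 11.8 kb from an end, at the assembly factor gene Sdhaf2. For the catalytic subunit genes Sdha and Sdhb the distances were 136 and 121 kb, and for the membrane anchors Sdhc and Sdhd they were 205 and 321 kb. The median of 169 kb was the longest of the complexes, and it lay within the quartiles of all protein-coding genes, 34.9 and 281 kb.

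In complex III, Uqcrq, a small subunit next to cytochrome b, was the only gene of 8 with a peak (12.5%, exact interval 0.316% to 52.7%). That interval includes the share of all protein-coding genes, 5.30%. The peak (chr11:53430936-53431273) lay 105 bp outside the end of higher coordinate, and its fold enrichment was 3.44, its q-value 0.0319, and its pileup 3. The growth factor gene Gdf9 ended 162 bp from the same peak. No strand was listed for Uqcrq, and the end was not assigned. The core proteins Uqcrc1 and Uqcrc2 were 74.4 and 70.3 kb from a peak, and the iron-sulfur protein gene Uqcrfs1 was 772 kb away, the farthest of the 100 genes.

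Complex IV had 1 gene of 18 with a peak (5.56%, exact interval 0.141% to 27.3%). Cox5b encodes a zinc-binding subunit, and its peak (chr1:36690211-36690423) lay 1064 bp upstream of the TSS with a pileup of 2 and a fold enrichment of 2.83. Its q-value was 0.0439, and the largest in the list was 0.0472. Its partner subunit gene Cox5a was 41.8 kb from a peak. Complex IV contains subunits with isoforms for different tissues, and none of the isoform genes named next had an end within 3 kb of a peak, as was the case for most protein-coding genes, of which 5.30% had one. The distance was 142 kb for the widely expressed Cox4i1 and 66.4 kb for the lung form Cox4i2, and 26.3 kb for Cox6a1 and 148 kb for the muscle form Cox6a2. It was 341 kb for Cox6b1 and 34.1 kb for the testis form Cox6b2. For Cox7a2 it was 171 kb and for the muscle form Cox7a1 23.8 kb, and it was 21955 bp for Cox8a, 360 kb for Cox8b, and 176 kb for Cox8c.

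**Figure D1:**
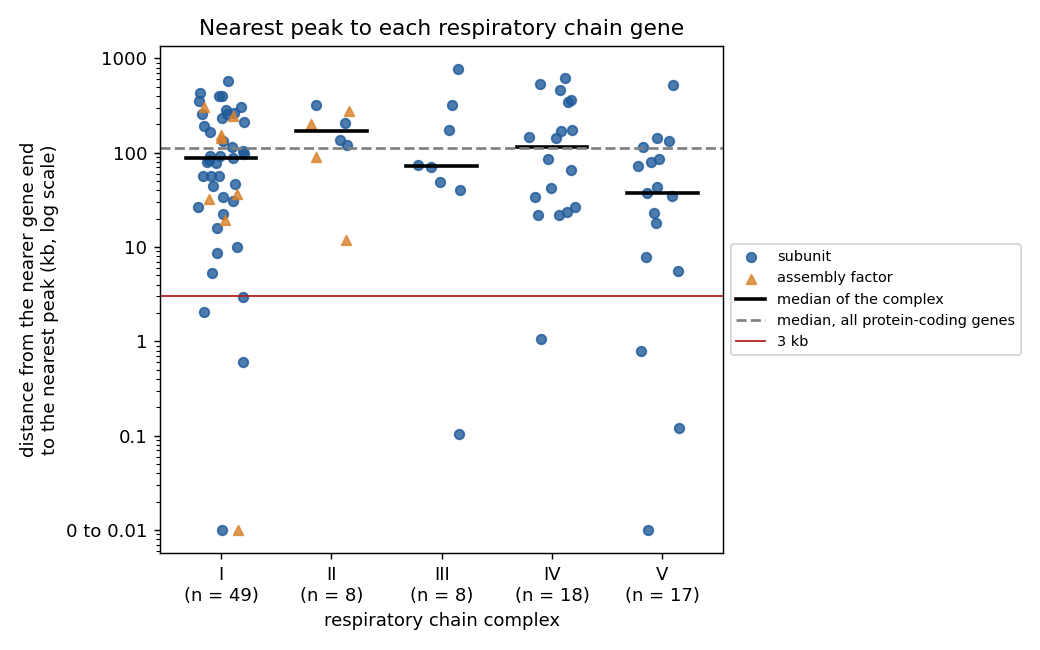
Distance in kb (log axis) from the nearer end of each of the 100 genes to the nearest peak, by complex, with subunits as circles and assembly factors as triangles. Distances of 10 bp or less are drawn at the lowest mark, black lines are the medians of the complexes, the dashed line is the median of all protein-coding genes (111 kb), and the red line marks 3 kb, below which 10 genes lie, none of them in complex II.

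By position, most of the peaks with a known orientation lay at the 5′ side of the gene. Of the 10 genes, 9 had a listed TSS, and 6 of these (66.7%) had a peak within 3 kb of it: Atp5g1, Atp5g3, Atp5md, Cox5b, Ndufa6, and Ndufaf8. Of all 940 protein-coding genes with a listed TSS and a peak near an end, 608 (64.7%) had a peak within 3 kb of the TSS, a share close to that of the respiratory chain genes. Counting the TSS alone, 6 of 82 genes had a peak within 3 kb (7.32%, exact interval 2.73% to 15.2%), against 3.91% of all protein-coding genes with a listed TSS. Within 1 kb of the TSS, 5 of 82 genes had one (6.10%, exact interval 2.01% to 13.7%), against 2.95%. Both intervals include the share of all genes.

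**Figure D2:**
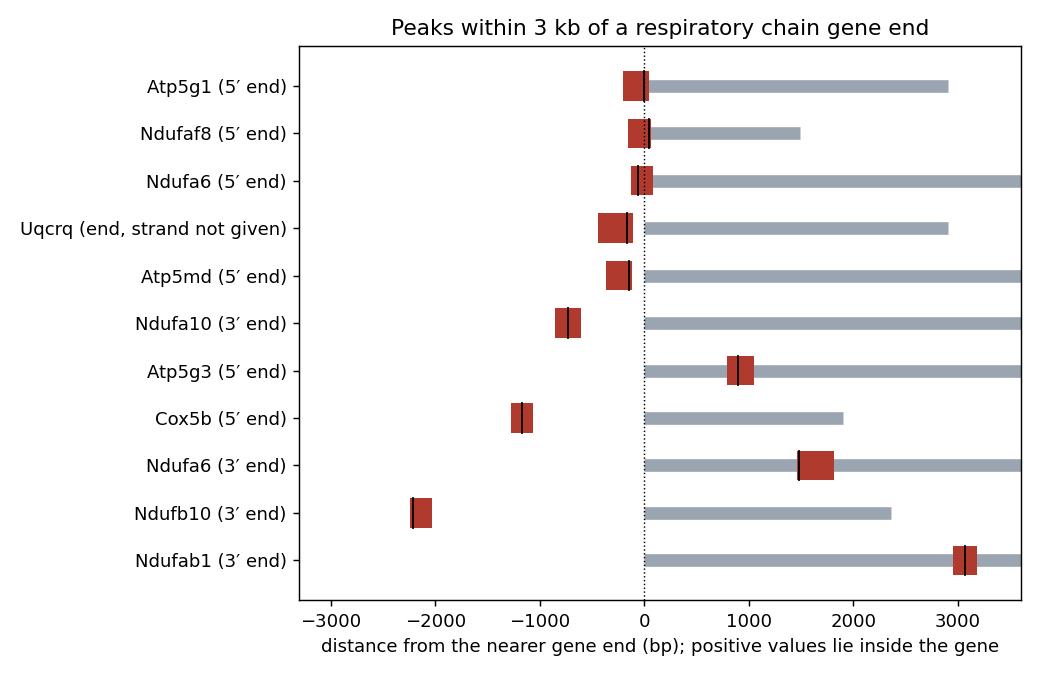
The 11 peaks (red boxes, summit as a black line) drawn to scale by distance in bp from the nearer end of the gene, with the gene body in grey to the right of 0 and cut off at the edge of the plot for longer genes. The peaks of Atp5g1, Ndufaf8, and Ndufa6 overlap the 5′ end, and those of Ndufb10 and Ndufab1 lie over 2 kb from the 3′ end.

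A second count took in peaks anywhere inside the gene. By this count 12 of the 100 genes had a peak in the gene or within 3 kb (12.0%, exact interval 6.36% to 20%), the 2 added genes being Atp5pb and Ndufaf2. The share over all protein-coding genes was 13.0%. The respiratory chain genes are short, with a median length of 7.34 kb against 17.2 kb for all protein-coding genes. Among them the genes with a peak near an end had a median of 3.46 kb and those without one 7.58 kb.

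Gene length was taken into account by dividing the genes into 5 classes. Of the 32 respiratory chain genes under 5 kb, 7 had an end within 3 kb of a peak (21.9%, exact interval 9.28% to 40.0%), while 3.14% of the 5034 protein-coding genes of this length did. The 7 were Atp5g1, Atp5g3, Cox5b, Ndufa6, Ndufaf8, Ndufb10, and Uqcrq. In the longer classes the counts were 1 of 37 at 5 to 10 kb, where 5.78% of all protein-coding genes had a peak, 1 of 15 at 10 to 20 kb (5.63%), 1 of 12 at 20 to 50 kb (6.40%), and 0 of 4 above 50 kb (5.80%). The exact intervals of these 4 classes include the share of all genes. The genes with peaks were thus mostly those under 5 kb, the only length class whose interval did not include the background share. The difference was not tested, and no allowance was made for the number of classes. The peaks of Ndufaf8, Ndufb10, and Uqcrq also lay within 3 kb of another gene's end, and that of Cox5b had a pileup of 2. Length classes were not recounted under other settings.

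**Figure D3:**
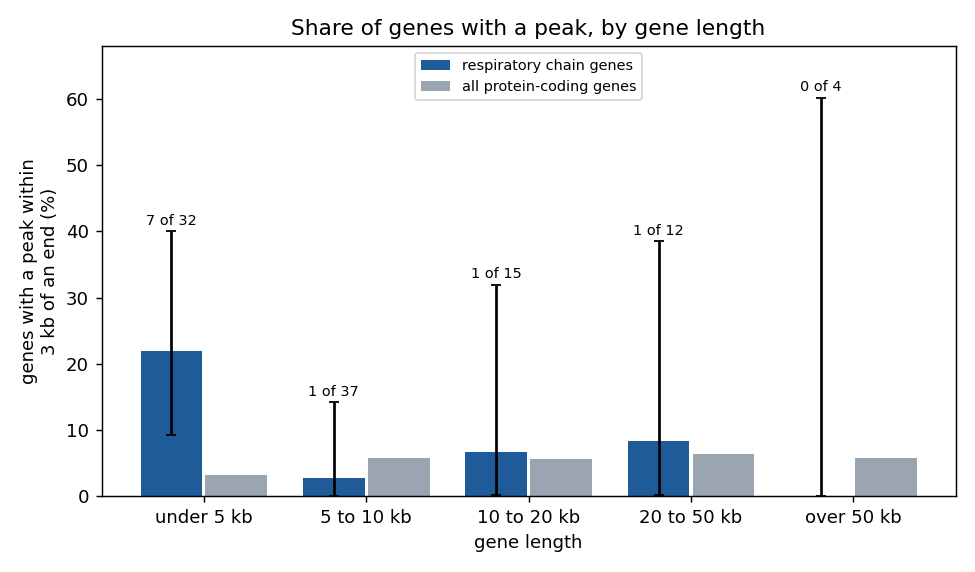
Percentage of genes with an end within 3 kb of a peak in 5 classes of gene length, for respiratory chain genes (blue, with 95% exact binomial intervals and counts) and all protein-coding genes (grey). The blue bar under 5 kb, at 21.9%, stands above the grey bar at 3.14%, and in the other classes the intervals include the grey bars.

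The promoters of the genes with peaks had a high content of CpG dinucleotides, a property that the gene rule did not use. A promoter window was called CpG-rich when its GC content was at least 55% and its ratio of observed to expected CpG at least 0.6. By this measure 54 of the 82 respiratory chain genes with a listed promoter (65.9%) were CpG-rich, compared with 44.1% of all protein-coding genes with one. All 9 genes with both a peak and a listed promoter were among the 54 (16.7%, exact interval 7.92% to 29.3%), and 0 of the 28 others had a peak, which allows a share of up to 12.3%. Over all protein-coding genes, 7.40% of those with a CpG-rich promoter and 3.77% of the others had an end within 3 kb of a peak. Counted by window, 282 of the 8710 CpG-rich windows of all protein-coding genes were overlapped by a peak, against 371 of all 21263 windows. Among genes under 5 kb with a CpG-rich promoter, 6 of 15 respiratory chain genes had a peak (40.0%, exact interval 16.3% to 67.7%), against 6.95% of all 806 such protein-coding genes. The class was formed after the counts by length were known, and its counts are a description.

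Short motifs were then searched on both strands of the 87 promoter windows. GTCTG, which holds the core of the Smad binding element, was in 48.3% of the respiratory chain windows and in 48.4% of all windows. GGCGC, a GC-rich Smad motif, was in 67.8% against 46.7%, TGCGCA, the core of the site of NRF1, which drives many nuclear genes for mitochondrial proteins, in 25.3% against 9.74%, and CCGGAAG, an ETS motif of the kind bound by GABP, also in 25.3%, against 11.6%. TATAAA was in 11.5% against 12.6%. Among all CpG-rich windows GGCGC was in 84.1%, TGCGCA in 16.9%, and CCGGAAG in 19.7%. The share with GTCTG was close to that of all windows, and the shares with the NRF1 and ETS motifs were above those of all and of CpG-rich windows, differences that were not tested. In windows overlapped by a peak, over all protein-coding genes, GTCTG was found in 49.9%, GGCGC in 70.1%, TGCGCA in 21.0%, and CCGGAAG in 25.6%. Of the 5 respiratory chain windows shown above, 4 held GTCTG, and in 2 of them it lay within the peak, 19 bases before the TSS of Atp5g1 on the other strand and 216 bases before that of Atp5g3. TGCGCA was in 1 of the 5 windows, that of Ndufa6, 80 bases before and 28 bases after the TSS, both within the peak. CCGGAAG was in 2 of the 5. In Ndufaf8 it lay 8 bases before the TSS, within the peak. In Atp5md it lay 2 bases after the TSS on the other strand, outside the peak. GGCGC was in 3 of the 5, those of Atp5g3, Ndufa6, and Ndufaf8, and lay within the peak in Ndufaf8 alone. GGCGC reads GCGCC on the other strand, so matches on the 2 strands can overlap, as they do in Ndufaf8.

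Few fragments stood behind each peak. The 11 peaks had pileups of 2 to 6, with a median of 4, and fold enrichments of 2.83 to 5.26. Of the 11, 3 (27.3%) had a pileup of 2, compared with 53.4% of the 5326 peaks of the list and 33.2% of the 963 peaks within 3 kb of a protein-coding gene end. A q-value of at most 0.01 was reached by 6 of 11 (54.5%), by 38.6% of all peaks, and by 49.9% of those near a protein-coding gene end. None of the 11 had a pileup of 7 or more. The highest rank by q-value was 766 of 5326, that of the Atp5md peak, and the peaks of Cox5b, Ndufa10, and Ndufab1 shared rank 4182.

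**Figure D4:**
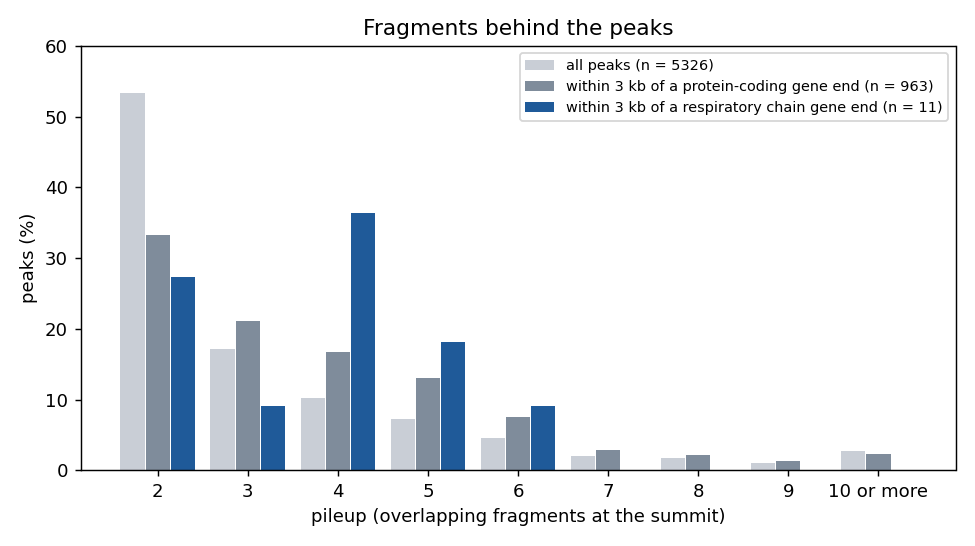
Percentage of peaks at each pileup, the number of fragments overlapping at the summit, for all 5326 peaks, the 963 within 3 kb of a protein-coding gene end, and the 11 within 3 kb of a respiratory chain gene end. The latter lie between 2 and 6, with 4 of the 11 at a pileup of 4.

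Related gene lists were counted in the same way. The share of all protein-coding genes, 5.30%, lay within the exact interval of each list in this paragraph. Of 37 further assembly factors and electron carriers of the chain, among them Cycs, Bcs1l, and Surf1, 3 had an end within 3 kb of a peak (8.11%, exact interval 1.70% to 21.9%). They were Tmem126b (complex I assembly, q-value 0.00124), Sco2 (copper delivery to complex IV, 0.0226), and Ttc19 (complex III, 0.0319). Of 18 genes of the TCA cycle, which supplies the chain with NADH and succinate, 1 had a peak (5.56%, exact interval 0.141% to 27.3%), that of Ogdh, 8 bp from an end with a q-value of 0.0272. Of 15 regulators of mitochondrial gene expression 2 did (13.3%, exact interval 1.66% to 40.5%), Tfb1m and Tfb2m, both members of the family of mitochondrial transcription factor B. The Tfb1m peak had a pileup of 7 and a q-value of 4.38e-06, and the Tfb2m peak a pileup of 4 and a q-value of 0.00330. The other regulators of the list, among them Nrf1, Gabpa, Ppargc1a, and Tfam, had none near an end. Counting peaks in the gene or within 3 kb, 4 of the 15 had one (26.7%, exact interval 7.79% to 55.1%). The share over all protein-coding genes by that count, 13.0%, lay within the interval.

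The ribosomal protein genes were counted as further lists, without matching for gene length or expression. Of 78 mitochondrial ribosomal protein genes, 6 had an end within 3 kb of a peak (7.69%, exact interval 2.88% to 16.0%). Of 87 cytoplasmic ribosomal protein genes, 12 did (13.8%, exact interval 7.34% to 22.9%). The share of all protein-coding genes, 5.30%, lay within the mitochondrial interval and below the cytoplasmic interval. The respiratory chain genes, at 10.0%, lay between these lists, and their intervals overlap. The difference between the lists was not tested.

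**Figure D5:**
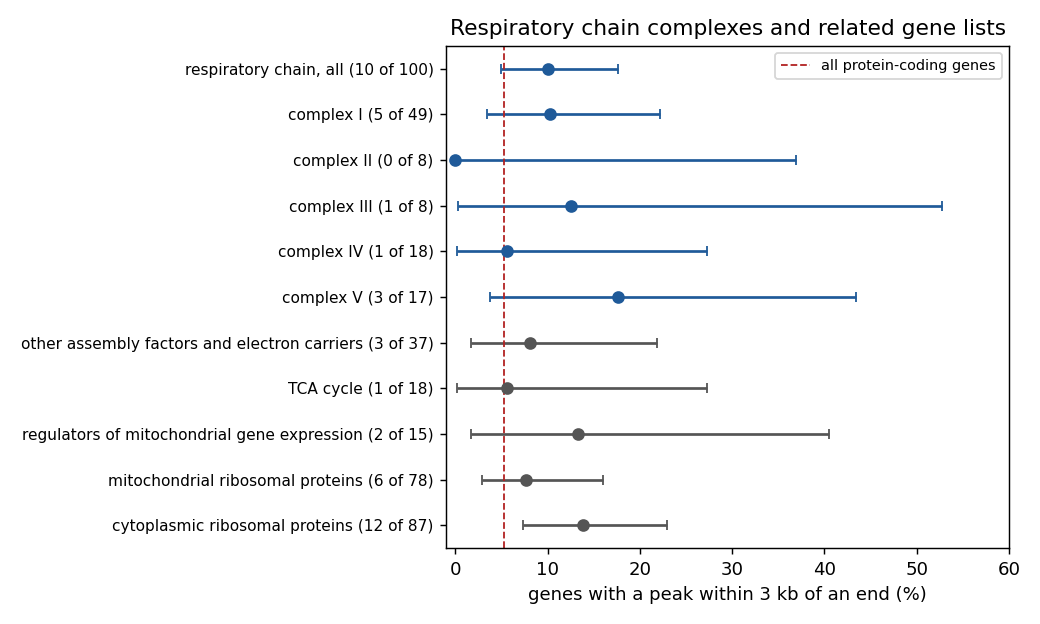
Percentage of genes with an end within 3 kb of a peak (points) with 95% exact binomial intervals (bars), for the respiratory chain genes and each complex in blue and for related gene lists in grey, with counts in the labels. The dashed line is the share of all protein-coding genes, 5.30%, which lies inside every interval except that of the cytoplasmic ribosomal proteins.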

How the data were processed

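Cut&Tag was performed by the authors on nuclei of mouse hippocampus with an anti-Smad4 and an IgG antibody. Per the methods, peaks were called with MACS2 from uniquely mapped reads at a cutoff of 0.05. The submitters' processing notes name BWA, MACS2, HOMER, and mm10, and versions, duplicate handling, and use of a control library are not given in the sources used here. The authors deposited, per peak, its summit, a fold enrichment ratio, −log10 p, −log10 q, and a score derived from the latter. Library depth is unknown.

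Positions, counted from 1, were compared with RefSeq GRCm38 genes (refseq table and promoter windows, with strand and TSS for 82 of the 100 genes). The set comprises genes with Nduf, Sdha to Sdhd, Uqcr, Cox4i, Cox5 to Cox8, or Atp5 symbols. Pileups were recovered as whole numbers from the fold enrichment and p-value under a Poisson background, within 0.001 for all 5326 peaks, and the code was tested on simulated data. Shares have 95% exact binomial (Clopper-Pearson) intervals, which cover counting error only. With 1 list, no test was made, and random genes of like length were replaced by length classes. The genes named were those with a peak near an end or inside, the 5 nearest outside the window, core subunits, and isoform pairs. Values for 1 core subunit are not reported here. The gene set and lists were chosen with earlier results of these data known, and the CpG classes after the counts were seen. Python 3.11.15, NumPy 2.4.6, pandas 2.3.3, SciPy 1.17.1, and matplotlib 3.10.9 were used.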

Additional observations from a re-analysis of the deposited data

How the results depend on the processing

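No paired analysis was possible because each antibody has 1 library and there is a single peak list. Of 53 values under the alternatives, 29 stayed within 1.5 times the main count. These include complex II, which stayed at 0 throughout. Most of the alternatives only drop peaks or narrow the window and could not have changed that 0. With a q-value of at most 0.01, 6 respiratory chain genes and 6 peaks were left (593 of all protein-coding genes), and 6 genes with a peak in the gene or within 3 kb. The count was 3 in complex I, 0 in complexes III and IV, and 3 in complex V. With at most 0.001, 2 genes (Atp5md and Ndufa6) and 315 of all were left, 1 each in complexes I and V and 0 in III and IV. A fold enrichment of at least 5 also left 2, a limit under which all protein-coding genes were not counted. A pileup of at least 3 left 7 genes by either count, 3 in complex I and 0 in complex IV. A 1 kb window gave 3 in complex I and 0 in complex IV, and 717 of all, and a 10 kb window 5 in complex V and 2365 of all. The TSS alone gave 6, and 684 of all. These filters remove peaks or change the window by construction. The share of respiratory chain genes against all protein-coding genes was 6% and 2.71% at a q-value of at most 0.01, 2% and 1.44% at 0.001, 7% and 3.65% at a pileup of 3 or more, 9% and 5.15% with summits, 7% and 3.28% with 1 kb, and 14.0% and 10.8% with 10 kb. With each peak given to its nearest protein-coding gene, 8 genes were left, without Atp5md and Ndufb10. No share over all protein-coding genes was computed for that rule. The same holds for peaks in the gene or within 3 kb under the q-value and pileup limits. Those counts therefore do not set the respiratory chain genes apart. With subunits alone, 9 of 88 had a peak.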

Other observations

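The pentamer CCAAT, searched on both strands after the printed sequences had been seen, occurred in all 5 respiratory chain promoter windows that a peak overlapped, with 5 copies in Atp5g1, 4 in Ndufaf8, and 1 each in Atp5g3, Atp5md, and Ndufa6. In Atp5g1 all 5 copies lay within the peak, and in Ndufaf8 2 did. At 1 place in Atp5g1 a copy on each strand overlaps the other, and both were counted. It was present in 41.4% of the 87 respiratory chain windows, 38.2% of all protein-coding windows, and 42.9% of the 371 windows overlapped by a peak. At least 3 copies were found in 3.92% of all windows, in 6.20% of those overlapped by a peak, and in 9.2% of the 87 respiratory chain windows. Because the motif was chosen from these windows, the counts are a description only.

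The symbol rule also matches 19 pseudogenes, which were not members. Of these, 1 lay within 3 kb of a peak by either end, Atp5l2-ps on chromosome 11 at 845 bp. Among all protein-coding genes 5.30% did, and the share over all pseudogenes was not counted. The count does not set these pseudogenes apart. Whether reads from the genes and their pseudogenes can be told apart was not tested.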
